A study of Mus musculus with 12 samples.

Results

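The cytosolic ribosomal protein genes encode the proteins of the ribosomes that translate nuclear mRNAs. They were chosen by symbol, as protein-coding genes named Rpl or Rps with a number and at most an a, l, x or y suffix, together with Rplp0, Rplp1, Rplp2 and Rpsa. A digit after the a or l suffix was accepted, which brought in Rps3a1, Rpl22l1 and Rpl7l1. The rule gave 85 members among 26305 genes, of which 50 belonged to the large subunit, 32 to the small subunit and 3 to the stalk. Another 2 genes that fit the symbol pattern, Rpl6l and Rps4l, are annotated as pseudogenes and were left out, as were the mitochondrial ribosomal proteins and the ribosomal S6 kinases. Of the 85 members, 8 are paralogs whose symbol has an l suffix. In all, 83 members passed the filter on low counts and were tested. The exceptions were Rpl10l, with 0 counts in all 12 libraries, and Rpl3l, with 14 counts in total.

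A ribosome carries a single copy of most of these proteins, and their genes are known for being expressed together at a high level in growing cells. The mRNAs begin with a run of pyrimidines, the terminal oligopyrimidine tract, through which the mTOR kinase and the RNA-binding protein LARP1 control their translation. Mammalian genomes also hold many pseudogenes of this family, which arose when ribosomal protein mRNAs were copied back into DNA. Rpl5 and Rpl11 have a further role in the cell, since free RPL5 and RPL11 bind MDM2 and stabilise p53 when ribosome assembly is disturbed.

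RNA was sequenced from 12 cultures of primary mouse embryonic fibroblasts, which the labels describe as wild type, male and C57BL/6, isolated from E13.5 embryos. The cells grew in DMEM with 10% serum under 3% oxygen and 5% carbon dioxide, and received WM-2474 at 10 µM or the solvent DMSO for 96 h or 240 h. The 4 groups were thus DMSO 96 h, WM-2474 96 h, DMSO 240 h and WM-2474 240 h, with 3 replicates each. The labels call WM-2474 an inactive control compound, and no active compound was among the samples. Nothing in the labels says how many embryos the cultures came from, so the p-values measure the spread between these cultures.

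Library totals ran from 7313007 to 26019167 counts. A floor of 3 counts thus equalled 0.1153 to 0.4102 CPM (here counts scaled to the library total), for counting error only. All other CPM values were scaled to the library total multiplied by its TMM factor. All 10 fibroblast markers were detected in every library, at a summed level of 31400 to 52700 CPM, and the red cell markers were at 0 in every library. The 10 markers of the B lineage reached 25.7 to 43.3 CPM, with the highest sums, 43.3 and 38.8 CPM, in replicates 1 and 2 of DMSO 240 h, mostly through Ebf1, which fibroblasts also express. Without Ebf1 and Cd74, a choice made after the values were seen, their sum was 10.6 and 14.4 CPM in that pair and to 0.542 to 3.82 CPM elsewhere, with Ms4a1 at 0 throughout. The part of these transcripts in the results at 240 h was not tested. Without the pair, 1 DMSO library would be left at 240 h, so no calls are given for that fit. In bulk RNA, fewer cells of a type and less RNA per cell cannot be told apart.

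The members were abundant but far from equal. Levels are given as RPKM, which divides CPM by the deposited gene length in kilobases, since most members are short, with a median length of 703 bases against 2849 for all tested genes. The median of the 83 tested members was 72.7 RPKM, against 9.35 RPKM for all 13499 tested genes, and 76 members lay above that value. Between the tenth and ninetieth percentile of members the level differed 49.1-fold. The median level was 44.8 RPKM for 48 large subunit members, 172 RPKM for 32 small subunit members and 938 RPKM for the 3 stalk members. Some members had fewer counts than near-identical genes elsewhere, described below, and most of these members belonged to the large subunit. The medians of the subunits were thus not separated from where reads were counted.

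The highest member was the stalk protein gene Rplp1, at 1442 ± 137 RPKM (SD over 12 libraries). It was followed by the large subunit gene Rpl8 (956 ± 34.8 RPKM) and the stalk scaffold gene Rplp0 (938 ± 33.2 RPKM). The small subunit genes Rps20 (758 ± 40.2 RPKM) and Rps2 (755 ± 58.4 RPKM) came next, within their spread over all libraries. Their order changed with time. At 96 h the group means of Rps2 and Rps20 were 806 and 745 RPKM with DMSO and 798 and 743 RPKM with WM-2474. At 240 h they were 693 and 737 RPKM with DMSO and 722 and 807.5 RPKM with WM-2474. The lowest tested members were Rpl39 (2.42 ± 1.15 RPKM), Rps27 (4.86 ± 0.721 RPKM), Rps29 (5.42 ± 1.60 RPKM), Rps13 (5.52 ± 1.15 RPKM) and Rpl31 (8.42 ± 1.06 RPKM). Of these, Rps27, Rps29 and Rps13 also lay within each other's spread. Rpl39 rested on 4 to 26 counts per library. Genes sharing much sequence with Rps27, Rpl31 and Rps13, described below as copies, held 32.4, 10.9 and 3.39 times the counts of these members. The low ranks of Rps27, Rpl31 and Rps13 therefore depend on where reads were counted, while no such copy of Rpl39 or Rps29 was found. Rpsa, which encodes the small subunit protein also described as a laminin receptor, had 187.5 ± 7.78 RPKM, and Rps27a, which encodes a fusion of ubiquitin with a small subunit protein, had 19.0 ± 1.71 RPKM. Rps6, the small subunit protein phosphorylated downstream of mTOR, had 49.9 ± 4.58 RPKM, Rpl5 had 9.08 ± 0.567 RPKM, and the third stalk gene Rplp2 had 68.5 ± 12.4 RPKM.

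**Figure D1:**
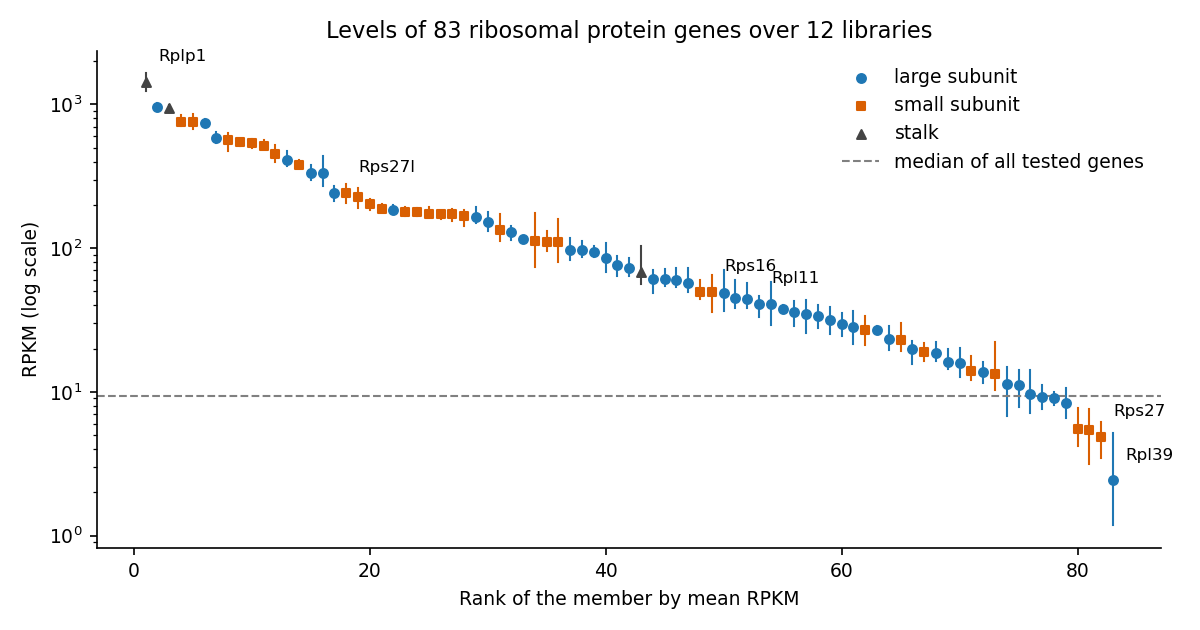
Level of each of the 83 tested members as RPKM on a log scale, ordered by rank. Points are means over 12 libraries, coloured by subunit, and vertical lines run from the lowest to the highest library; the dashed line is the median of all tested genes at 9.35 RPKM. Rplp1 stands at 1442 RPKM and Rpl39 at 2.42 RPKM, and 7 members lie under the dashed line.

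Some paralogs were counted at a higher level than the gene they are named after. Rps27l, a p53-regulated paralog of Rps27, had 240.8 RPKM against 4.86 RPKM for Rps27. That gap depends on Rps27rt, a gene with the same coding sequence as Rps27. Summed with Rps27rt, Rps27 had 84.4 ± 14.3 CPM with DMSO at 96 h, where Rps27l had 99.2 ± 3.64 CPM, on a scale not corrected for length. Rpl36al had 76.0 ± 8.26 RPKM against 29.9 ± 3.50 RPKM for Rpl36a, and Rpl39l had 9.62 ± 1.98 RPKM against 2.42 RPKM for Rpl39. Of the 50-base words of the transcript, 14.5% occurred at no other gene for Rpl36a and 53.5% for Rpl36al. The level of Rpl36a is thus less certain than that of Rpl36al. In the other direction, Rpl22 had 94.4 ± 5.99 RPKM and Rpl22l1 40.9 ± 9.48 RPKM, Rpl7 had 335 ± 22.7 RPKM and Rpl7l1 37.6 ± 1.42 RPKM, and Rpl32 had 408.7 ± 31.8 RPKM and Rpl32l 61.2 ± 6.08 RPKM. Gm15421, a copy that shares 63.3% of its 31-base words with Rpl22l1, held 7280 counts against 2938 for Rpl22l1 itself. The level of Rpl22l1 relative to Rpl22 is therefore uncertain. Rpl3 had 115 ± 2.27 RPKM, while its paralog Rpl3l, known from muscle, was not tested, and neither was Rpl10l, known from the testis. Rps3a1, a small subunit gene, had 168 ± 13.0 RPKM, and Rps4x, the X-linked partner of the pseudogene Rps4l, had 174 ± 9.85 RPKM. The annotation of GENCODE M21 lists Rpl32l as a pseudogene, whereas that of RefSeq lists it as protein coding.

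The level of a member depends on where reads from near-identical copies were counted. In the transcripts of GENCODE M21, a median of 49.1% of a member's 50-base words occurred at no other gene, 44 of the 85 members had less than 50% such words, and 3 had only such words. The lowest value was 1.35%, for Rps27. These shares refer to 1 transcript per member, which differed from the deposited length by over 1.5 times for 11 members. Across the 83 tested members, which are not independent and share their libraries, the share of unique words and the level had a Spearman correlation of 0.14. The deposited table held 92 other genes that shared at least 30% of their 31-base words with a member, here called copies, and they belonged to 44 members. Of the copies, 90 are annotated as processed pseudogenes, 6 of them transcribed, 1 as a miRNA gene (Mir682) and 1 as protein coding (Rps27rt).

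The copies held 615331 counts over the 12 libraries and the members 1923136, a ratio of 0.32. For 24 of the 44 members the copies held more counts than the member itself. Rpl24, a large subunit gene, had 1611 counts while its copy Gm9385 had 47478. Rpl23 had 7082 counts and its copy Gm9794 had 55215. Rpl23a had 957 counts while Gm10132 had 17844 and Gm10335 had 11811. Rps27 had 410 counts and Rps27rt 13304, and their coding sequences of 252 bases aligned with 0 substitutions. How the authors' counting treated reads that fit several genes is not given in the sources used here. The split between a member and its copies is therefore uncertain. The following sequences are shown because a single base separates member and copy over the whole coding sequence. Outside it the genes can differ, and 22.3% of the 50-base words of the Rpl24 transcript, 65.2% of Rpl23 and 17.4% of Rpl23a occurred at no other gene. They are the coding stretches around that base in Rpl24 (positions 293 to 333, substitution C313T in Gm9385), Rpl23 (positions 233 to 273, C253T in Gm9794) and Rpl23a (positions 226 to 266, C246T in Gm10132). Positions count from 1 at the first base of the member's coding sequence, the substitution gives the member's base first, the sequences come from GENCODE M21, and the capital marks the base that differs.
Rpl24: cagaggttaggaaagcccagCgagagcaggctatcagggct
Gm9385: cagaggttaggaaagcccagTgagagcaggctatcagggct
Rpl23: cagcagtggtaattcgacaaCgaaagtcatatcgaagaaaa
Gm9794: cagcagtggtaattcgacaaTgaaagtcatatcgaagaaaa
Rpl23a: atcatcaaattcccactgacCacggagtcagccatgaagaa
Gm10132: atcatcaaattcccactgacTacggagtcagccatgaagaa

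In GRCm38.p6, Rpl24 lies on chromosome 16 from 55966275 to 55971437 and Gm9385 on chromosome 9 from 116040531 to 116041121. Rpl23 lies on chromosome 11 from 97777526 to 97782439, and Gm9794 on chromosome 6 from 66875262 to 66875764. Gm10132 is on chromosome 14 from 77251796 to 77252327.

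**Figure D2:**
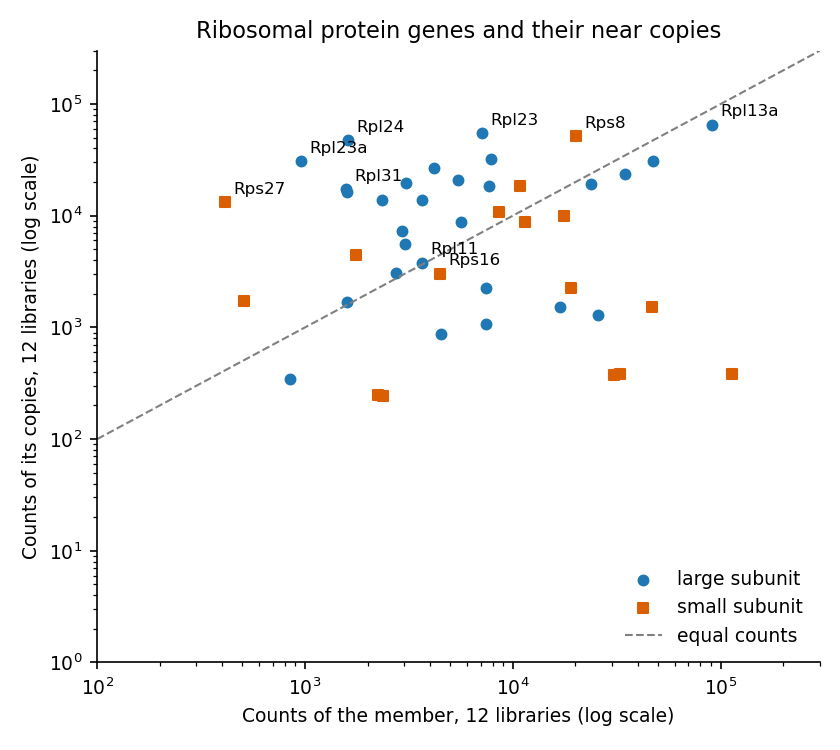
Counts of 44 members (horizontal axis) against the summed counts of their copies (vertical axis) over 12 libraries, both on log scales, coloured by subunit. The dashed line marks equal counts; 24 members lie above it, among them Rpl24 and Rpl23, while Rps16 lies below it with 4460 counts against 3019.

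Members took 1.21 to 1.36% of all counts in each library. At 96 h the share was 1.29, 1.28 and 1.36% of all counts in DMSO replicates 1, 2 and 3, and 1.32, 1.28 and 1.31% with WM-2474. At 240 h it was 1.21, 1.22 and 1.22% with DMSO and 1.26, 1.3 and 1.25% with WM-2474. The 3 WM-2474 libraries at 240 h thus lay above the 3 DMSO libraries of that time, and the groups overlapped at 96 h. With DMSO all libraries at 240 h lay below those at 96 h, at group means of 1.22 and 1.31%. With WM-2474 the times overlapped. The copies took 0.395 to 0.426% of counts, with the same overlap of groups at 96 h. At 240 h they took 0.395, 0.403 and 0.401% with DMSO and 0.411, 0.426 and 0.403% with WM-2474. Within a group, the median member varied by a coefficient of variation of 5.49 to 7.65%.

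**Figure D3:**
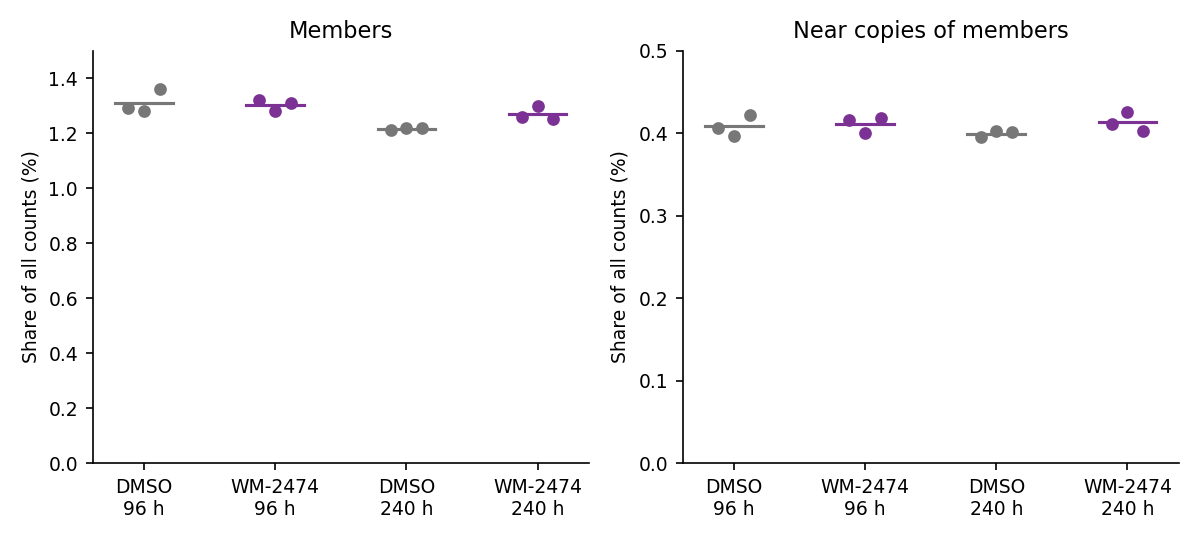
Share of all counts taken by the 85 members (left) and by their 92 copies (right), in percent, with a point for each library and a line for each group mean; both vertical axes start at 0. The members' share lies between 1.21 and 1.22% with DMSO at 240 h and between 1.25 and 1.3% with WM-2474 at 240 h.

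The comparison at 96 h asks what the control compound did to the members after the shorter exposure. No member passed, the median log2 fold change of WM-2474 against DMSO was 0.01, and 48 members were above 0, beside 50.1% of all genes. The test was edgeR's quasi-likelihood test with Benjamini-Hochberg adjustment over all 13499 genes, which called 0% of all genes. At an unadjusted p under 0.05 there were 2 members higher and 0 lower, beside 1.07% and 1.02% of all genes. DESeq2 and limma-voom called 0 members as well, with 1 and 2 members under that unadjusted level, all higher. The smallest p among higher values belonged to the small subunit gene Rps23. It had 12.9, 11.7 and 13.2 CPM with DMSO and 15.9, 13.0 and 16.1 CPM with WM-2474, and the groups overlapped. Large subunit members had a median of 0.02 and small subunit members of 0.00. The libraries did not overlap for 2 members, both lower with WM-2474, beside 3.62% of all genes in the higher and 3.83% in the lower direction. Replicate numbers paired the libraries at this time, and a fit restricted to 96 h that took the number as a block also called 0 members, with 6 higher and 2 lower at an unadjusted p under 0.05.

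At 240 h members tended to higher values with WM-2474, with a median log2 fold change of 0.11, but none passed the test over all genes. All tested genes had a median of 0.00, and 64 of 83 members were above 0, beside 50.6% of all genes. edgeR's quasi-likelihood test called 0 members and 0.0296% of all genes. At an unadjusted p under 0.05, 33 members were higher and 2 lower, beside 4.77% and 3.37% of all genes. DESeq2 called 0 members, with 32 higher and 2 lower at that unadjusted level. In limma-voom 1 member was called higher, beside 0.0519% of all genes, with 37 higher and 2 lower at the unadjusted level. The treatments did not overlap for 29 members with higher values under WM-2474, beside 7.58% of all genes, and for 1 with lower values, Rps7, beside 6.72%. Rps7 had 225, 253 and 236 CPM with DMSO and 223, 182 and 217 CPM with WM-2474 (log2 -0.20 ± 0.07, adjusted p = 0.521).

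The median depended on the libraries and on gene length. Without WM-2474 240 h replicate 2, whose members lay a median of 0.08 above their group mean on the log2 scale, the members' median was 0.06. Other genes of at most 1000 bases had a median of 0.06, and within the members the shorter 42 had 0.15 and the longer 41 had 0.08. With offsets that removed each library's trend of level on gene length, the members' median was 0.04. Large subunit members had a median of 0.14, small subunit members of 0.10 and the 3 stalk members of 0.12, while the 6 tested paralogs had 0.09. Mitochondrial ribosomal protein genes, which serve the separate ribosomes of the organelle, had a median of 0.02 over 77 tested genes, with 5 higher and 4 lower at an unadjusted p under 0.05.

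Among the members with the smallest p at 240 h were the large subunit genes Rpl18 and Rpl32. Rpl18 had 89.8, 96.9 and 89.5 CPM with DMSO and 117, 120.4 and 104 CPM with WM-2474 (edgeR, 0.32 ± 0.07, adjusted p = 0.334). Rpl32 had 190.4, 193 and 187 CPM with DMSO and 219, 239.5 and 209 CPM with WM-2474 (0.23 ± 0.06, adjusted p = 0.334). For both genes the groups did not overlap. Among lower members, Rplp1 had 745, 732 and 769 CPM with DMSO and 666, 750.1 and 683 CPM with WM-2474 (-0.10, adjusted p = 0.661), with overlapping groups. Rpl32l had 38.0, 41.4 and 40.2 CPM with DMSO and 28.6, 36.3 and 38.7 CPM with WM-2474 (-0.21, adjusted p = 0.571).

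The count of members called at 240 h changed with the setting. A fit of only the 240 h libraries called 5 members higher, among them Rpl41, Rps21, Rps16 and Rpl18, beside 0.117% of all genes. A table without the filter on low counts called 6 higher, beside 0.199% of all genes. With the replicate number as a block, only the 240 h libraries gave 10 members higher and 0 lower. Of all genes, that fit called 0.618% higher and 0.0939% lower. At this time the numbers were not taken as pairs, since same-numbered libraries correlated by only 0.0397 to 0.114. Differently numbered ones lay lower, at -0.114 to 0.0231, so a weak pairing was not excluded. DMSO 96 h replicate 3 is in neither group compared and enters through the shared spread, filter, TMM factors and adjustment. Without this library 4 members were called, among them Rpl41, Rps16 and Rps21. Without DMSO 96 h replicate 1 the count was 1. Of all genes, 0.0806% and 0.0732% were called higher in these fits. Rps21, a small subunit gene singled out after its values were seen, had 35.3, 38.3 and 32.7 CPM with DMSO at 240 h and 53.6, 62.6 and 47.2 CPM with WM-2474, without overlap (edgeR, 0.65 ± 0.18, adjusted p = 0.462).

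**Figure D4:**
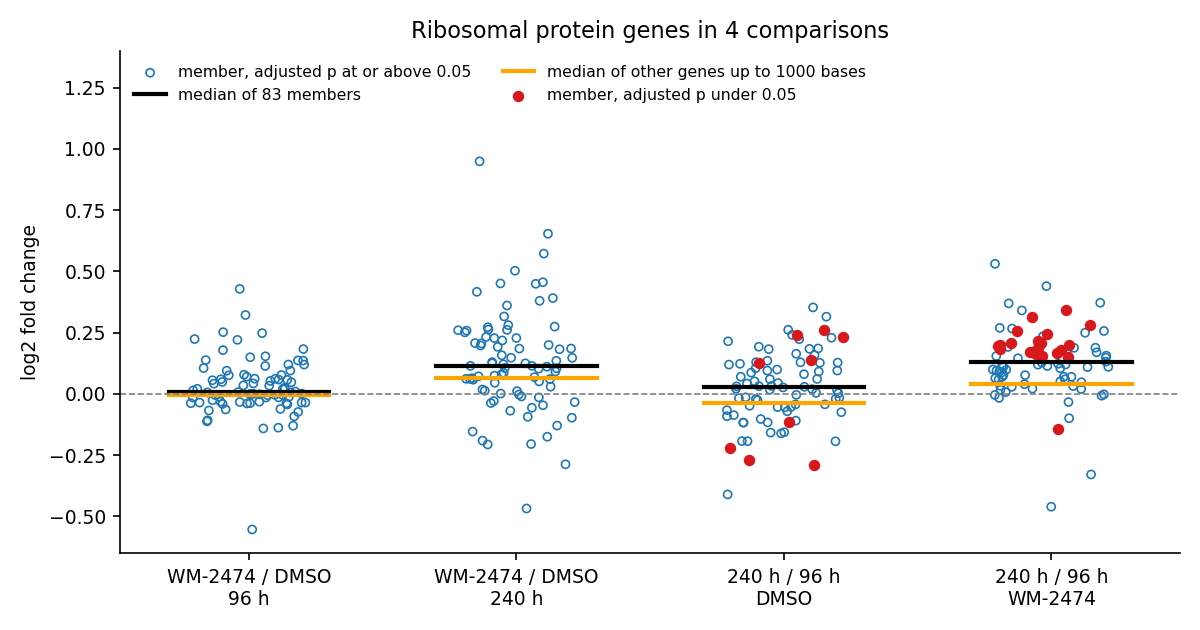
log2 fold change of the 83 tested members in 4 comparisons. Open circles did not pass and filled circles passed an adjusted p of 0.05; black lines are the members' medians and orange lines the medians of other genes of at most 1000 bases. The members' median is 0.01 at 96 h and 0.11 at 240 h for WM-2474 against DMSO, and 0.03 with DMSO and 0.13 with WM-2474 for 240 h against 96 h, where 9 and 20 members passed; under scaling by library totals the last pair of medians is -0.09 and -0.01.

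Rps16 and Rpl11, a small and a large subunit gene, stood near the middle of the members by level, at ranks 49 and 53. Rps16 (gene 20055, chromosome 7 from 28350689 to 28352698) had 22.1, 28.6 and 39.95 CPM with DMSO at 96 h and 27.7, 27.0 and 27.5 CPM with WM-2474. At 240 h it had 26.6, 29.9 and 24.03 CPM with DMSO and 35.4, 37.6 and 38.5 CPM with WM-2474. The WM-2474 libraries at 240 h lay above all others except DMSO 96 h replicate 3, which was the highest library. The difference at 240 h was 0.50 ± 0.19 on the log2 scale and did not pass (edgeR, interval 0.08 to 0.92, adjusted p = 0.542). Without DMSO 96 h replicate 3 it passed (0.50, adjusted p = 0.0268), as it did with only the 240 h libraries (adjusted p = 0.00793). Its only copy in the table, Gm8623, shares 301 of its 406 words of 31 bases with Rps16. Gm8623 had 16.0, 18.3 and 17.7 CPM with DMSO at 240 h and 25.6, 27.2 and 24.8 CPM with WM-2474, and it passed where its parent gene did not (0.57 ± 0.10, adjusted p = 0.017). Summed, a choice made after the data were seen, Rps16 and Gm8623 had 42.6, 48.2 and 41.8 CPM with DMSO and 61.0, 64.8 and 63.2 CPM with WM-2474, with a log2 fold change of 0.53 ± 0.13 (adjusted p = 0.439).

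Rpl11 (gene 67025, chromosome 4 from 136049354 to 136053393) had 24.8, 25.9 and 27.7 CPM with DMSO at 96 h and 24.7, 22.9 and 24.7 CPM with WM-2474. At 240 h it had 19.7, 24.04 and 21.4 CPM with DMSO and 26.04, 27.0 and 23.9 CPM with WM-2474. Its WM-2474 libraries were thus all below DMSO at 96 h, and overlapped with DMSO at 240 h at a higher mean. The log2 fold change was -0.11 ± 0.08 at 96 h and 0.25 ± 0.09 at 240 h (edgeR, adjusted p = 1 and 0.480). Rpl5, whose product acts beside RPL11 on MDM2, had 20.2, 19.3 and 19.1 CPM with DMSO at 240 h and 17.8, 18.2 and 19.7 CPM with WM-2474, with overlapping groups.

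For the average effect of WM-2474 over 96 h and 240 h no member passed edgeR's test, which called 0.0148% of all genes. The median was 0.07, 63 members were above 0, beside 51% of all genes, and 24 members were higher and 1 lower at an unadjusted p under 0.05, beside 3.17% and 2.48% of all genes. DESeq2 and limma-voom called 0 members too, with 22 higher and 1 lower and with 26 higher and 2 lower under that level. The smallest p belonged to Rps29 (0.69 ± 0.19), Rpl37 (0.30 ± 0.08) and Rpl13 (0.26 ± 0.07) among higher members and to Rps7 (-0.15 ± 0.05) among lower ones. Rps29 rested on 9 to 43 counts per library. Without DMSO 96 h replicate 3 the average called Rpl41 and Rps21.

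The difference between the effects at 240 h and 96 h was tested as an interaction, which is the same contrast as the difference between the time courses of both treatments. No member passed in edgeR, with 0% of all genes called, and DESeq2 and limma-voom called 0 as well. At an unadjusted p under 0.05, 16 members had a higher and 0 a lower difference in edgeR, beside 2.7% and 1.93% of all genes. DESeq2 gave 14 and 0, and limma-voom 21 and 0. The median difference was 0.09, with 63 members above 0, beside 50.7% of all genes. Rpl11 had a difference of 0.36 ± 0.12 (adjusted p = 0.977). A difference in the response of members between 240 h and 96 h was thus not shown.

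Culture time moved some members in either direction with DMSO. From 96 h to 240 h, 5 members rose and 4 fell in edgeR, which is 10.8% of the 83 tested, beside 17.5% of all genes higher and 17.3% lower, or 34.8% in either direction. The members' median log2 fold change was 0.03, that of all genes -0.01 and that of other genes of at most 1000 bases -0.04. Rps27l rose by 0.26 ± 0.05, from 102, 95.1 and 100.8 CPM to 118, 119 and 120.1 CPM, so that the times did not overlap (adjusted p = 0.000295). Rplp1 rose by 0.24 ± 0.05, from 634, 579 and 687 CPM to 745, 732 and 769 CPM (adjusted p = 0.00133). The other risers were the large subunit genes Rpl4 (0.14), Rpl27a (0.23) and Rpl22 (0.13).

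The falling members with DMSO included the marker gene Rpl11. It fell by 0.27 ± 0.08 on the log2 scale (adjusted p = 0.0145). Rps2, whose product lies at the mRNA entry site of the small subunit, fell by 0.22 ± 0.05, from 747.5, 818 and 851 CPM to 694, 708.5 and 674 CPM without overlap (adjusted p = 0.000901). Rpl13 fell by 0.29 ± 0.11 and Rpl8 by 0.11 ± 0.04. The 9 called members had times that did not overlap, which is likely for genes already selected by p. Among all genes, called or not, this held for 22.9% in the higher and 22.8% in the lower direction. That unselected share cannot be set against the 9 members. Without DMSO 240 h replicates 1 and 2, 1 DMSO library was left at 240 h, so no calls are given for that fit. Leaving out single libraries gave 3 to 7 members higher, beside 13.7 to 18% of all genes. The count was 3 after dropping replicate 2 or 3 of DMSO 96 h or replicate 2 of DMSO 240 h, where 13.7 to 14.5% of all genes were higher. Lower members numbered 1 to 8, beside 12.7 to 17.5% of all genes. They were 8 after dropping DMSO 96 h replicate 1, where 16.6% of all genes were lower. They were 1 after dropping the third replicate of either time, beside 13.6 and 12.7%, and 2 after dropping DMSO 240 h replicate 1 or 2, beside 14.9 and 14%.

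With WM-2474, 19 members rose and 1 fell from 96 h to 240 h, which is 24.1% of the 83, beside 15.9% of all genes higher and 14.8% lower, or 30.7% in either direction. The median was 0.13, against 0.00 for all genes and 0.04 for other genes of at most 1000 bases, and 74 members were above 0, beside 49.3% of all genes. At an unadjusted p under 0.05, 28 were higher and 1 lower, beside 20.5% and 20.1% of all genes. The risers comprised 10 large subunit genes, 8 small subunit genes and Rplp1. Rps27l rose by 0.26 ± 0.05, from 106, 98.8 and 108 CPM to 129, 126 and 118 CPM (adjusted p = 0.000406). Rpl13a, a large subunit gene whose product also represses translation of inflammatory mRNAs, rose by 0.21 ± 0.04, from 564, 570.0 and 553 CPM to 655, 654 and 639 CPM (adjusted p = 0.000568). Neither gene had overlapping times. Rpl7 (0.20), Rpl27a (0.31), Rpl34 (0.34), Rpl14 (0.22), Rpl19 (0.25) and Rps14 (0.15) also rose without overlap, and Rps2 fell by 0.14 ± 0.05. Rps16 had a log2 fold change of 0.44 ± 0.18 (adjusted p = 0.0972) and Rpl11 of 0.09 ± 0.08. Leaving out single libraries gave 8 to 24 members higher, beside 12.8 to 16.1% of all genes. The count was 8 after dropping the second replicate at 240 h and 12 after dropping the second at 96 h, beside 12.8 and 13% of all genes. The call of Rps2 was lost after dropping the third replicate at 96 h or replicate 2 or 3 at 240 h.

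The time courses share no libraries, and 5 members were called in the same direction in both, Rps27l, Rplp1, Rpl22 and Rpl27a higher and Rps2 lower. They make up 55.6% of the 9 calls with DMSO and 25% of the 20 calls with WM-2474. Directions over time depended on the scaling. TMM factors were 1.037 to 1.054 at 96 h and 0.9435 to 0.9666 at 240 h, and with library totals in their place the median of all genes moved from -0.01 to -0.13 with DMSO and from 0.00 to -0.14 with WM-2474. Under library totals 1 member rose and 17 fell with DMSO, with a members' median of -0.09. With WM-2474, 0 rose and 7 fell, with a median of -0.01. Of all genes, library totals called 8.82% higher and 32.5% lower with DMSO, and 8.13% and 32.5% with WM-2474. Scaling moves all genes of a library together, so that the members' medians stayed above those of all genes under both scalings is no separate result. In every alternative run Rps2 kept a negative and Rps27l a positive value in both time courses. With the length-trend offsets, 11 members rose with DMSO, beside 17.6% of all genes, and the members' median with WM-2474 was 0.07.

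**Figure D5:**
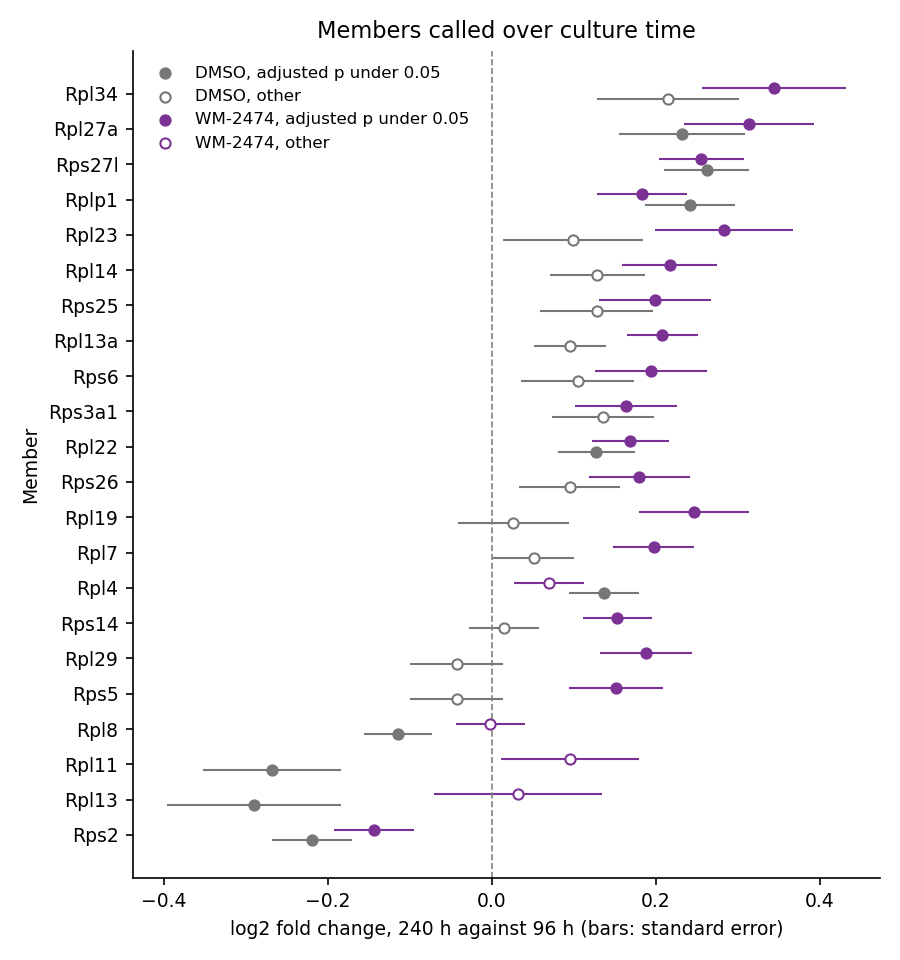
log2 fold change of 240 h against 96 h, with standard errors, for 22 of the 24 members called with DMSO (grey) or WM-2474 (purple); filled points passed an adjusted p of 0.05. Rps27l, Rplp1, Rpl22 and Rpl27a passed as higher and Rps2 as lower in both, relative to TMM-scaled libraries. With library totals all values shift down, and 1 member rose with DMSO and 0 with WM-2474, beside 8.82% and 8.13% of all genes.

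When members and their copies were summed, a choice made after the data were seen, the time calls became 10 higher and 3 lower with DMSO. With WM-2474 they became 24 higher and 1 lower. Of all genes, that fit called 17.6% higher and 17.3% lower with DMSO, and 16% and 14.9% with WM-2474. With DMSO, Rpl22l1, Rpl23, Rpl24, Rpl13a and Rps15a gained a call and Rpl13 lost its own. With WM-2474, Rps16 passed as a sum (0.45 ± 0.13, adjusted p = 0.0187). Among the 70 tested copies alone, 8 rose and 3 fell with DMSO and 15 rose with WM-2474. These are 11.4% higher and 4.29% lower with DMSO, beside 17.5% and 17.3% of all genes, and 21.4% higher with WM-2474, beside 15.9%. Gm9794, the copy of Rpl23, rose by 0.17 ± 0.05 with DMSO and by 0.26 ± 0.05 with WM-2474, relative to TMM-scaled libraries.

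Other genes of the ribosome pathway came from lists written with earlier results of these data known. Of 98 factors of ribosome assembly and rRNA processing, edgeR called 0 at either time for WM-2474 against DMSO. At 240 h their median was -0.09, opposite in sign to the members' 0.11, with 2 higher and 26 lower at an unadjusted p under 0.05 (2 and 16 in DESeq2, 2 and 21 in limma-voom, with 0 called by both), beside 4.77% of all genes higher and 3.37% lower in edgeR. Over culture time 35 of these 98 rose and 1 fell with DMSO, and 16 rose and 1 fell with WM-2474. The risers are 35.7% of the list with DMSO, beside 17.5% of all genes, and 16.3% with WM-2474, near the 15.9% of all genes, while 1.02% fell in each, beside 17.3% and 14.8%. Mdn1, an ATPase that remodels large subunit precursors, rose by 0.54 ± 0.07 with DMSO, and the assembly factor Rrp12 rose by 0.38 ± 0.08 with WM-2474. With library totals the counts were 14 higher and 10 lower with DMSO and 2 higher and 15 lower with WM-2474. Of all genes, library totals called 8.82% higher and 32.5% lower with DMSO, and 8.13% and 32.5% with WM-2474.

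The counts over time that follow stand beside 17.5% of all genes higher and 17.3% lower with DMSO, and 15.9% and 14.8% with WM-2474. Of 15 tested genes of RNA polymerase I transcription, which makes the ribosomal RNA precursor, 5 rose and 1 fell over time with DMSO and 2 rose with WM-2474. Of 37 translation initiation factors, 11 rose and 1 fell with DMSO and 9 rose with WM-2474, among them the helicase gene Eif4a2 (0.30 ± 0.05 and 0.23 ± 0.05). Of 12 elongation and termination factors, 4 rose with DMSO and 5 with WM-2474. Other mRNAs with a terminal oligopyrimidine tract rose in 6 of 26 with DMSO and in 5 with WM-2474, where 1 fell, and at 240 h their median for WM-2474 against DMSO was -0.05. Of 15 small nucleolar RNA host genes, 6 rose with DMSO and 5 with WM-2474. Of 17 genes of TOR signalling, 3 rose and 3 fell in each time course, with Rheb, the activator of mTOR, at 0.27 ± 0.05 and 0.32 ± 0.05. That is 17.6% in each direction, near the share of all genes. Of 15 genes of the MYC network and p53 response, 6 rose and 3 fell in each, and Mdm2, the ubiquitin ligase bound by RPL5 and RPL11, rose by 0.47 ± 0.05 and 0.32 ± 0.05. Of 14 ribosome-associated chaperones and quality control genes, 2 rose with DMSO and 1 with WM-2474, or 14.3% and 7.14%, both below the share of all genes. With library totals the calls of these lists shifted toward lower values, for example to 3 higher and 8 lower initiation factors with DMSO. Under that scaling 8.82% of all genes were higher and 32.5% lower with DMSO. Mitochondrial ribosomal protein genes numbered 1 higher and 6 lower with DMSO and 1 higher and 4 lower with WM-2474, of 77. The fusion gene Fau, whose product is a ubiquitin-like moiety joined to a ribosomal protein, passed in neither time course.

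Promoters in the RefSeq table for GRCm38.p6 were matched to 65 members with 77 windows of 300 bases, from 250 before to 50 after a start. The motif CGGAAG, the core bound by ETS factors, searched on both strands, was found in 59.7% of these windows and in 16.9% of all 32851 windows. AAGATGGC, the core of the YY1 site, was in 10.4% against 2.75%, and GGGCGG, the GC box, in 59.7% against 35.7%. All these motifs were searched on both strands. TATAAA, searched on the transcribed strand only, was in 9.09% against 8.32%. A run of at least 8 C or T on the transcribed strand within 50 bases of the start was in 77.9% of member windows and 35.7% of all windows. A match is a description of the letters and shows no binding. The stretches from 60 bases before to 20 after the start are given for the markers and for the members called in the same direction over both time courses with the smallest p, as chr7:28350629-28350708 (plus strand) for Rps16, chr4:136053374-136053453 (minus strand) for Rpl11, chr9:66946026-66946105 (plus strand) for Rps27l and chr17:24720003-24720082 (plus strand) for Rps2. Capitals mark CGGAAG or its reverse complement.
Rps16: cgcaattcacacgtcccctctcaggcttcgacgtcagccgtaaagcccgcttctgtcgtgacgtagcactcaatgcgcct
Rpl11: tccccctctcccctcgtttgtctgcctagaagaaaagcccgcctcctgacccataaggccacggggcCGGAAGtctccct
Rps27l: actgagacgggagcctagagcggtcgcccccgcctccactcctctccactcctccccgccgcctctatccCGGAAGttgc
Rps2: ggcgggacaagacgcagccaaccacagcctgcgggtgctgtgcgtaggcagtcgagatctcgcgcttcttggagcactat

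Rpl11 and Rps27l hold the motif within this stretch, and Rps16 and Rps2 do not.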

How the data were processed

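Gene counts of 12 libraries (poly(A) RNA, stranded kit) were used as deposited. The authors made these counts with featureCounts and the mm10 build, per the submitters' processing notes. The aligner, versions, annotation, strand setting and treatment of reads that fit several genes are not given in the sources used here. Symbols came from RefSeq GRCm38.p6 and named 25275 of 26305 identifiers. Another 874 entries without an identifier (0.547 to 0.648% of counts) were left out. Totals of 7313007 to 26019167 counts limit the precision of low members, and no pair of replicates agreed within sampling noise (chi-square per degree of freedom 2.04 to 5.28).

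All 12 libraries were fitted with edgeR 4.0.16 (R 4.3.3), using filterByExpr, TMM factors, robust quasi-likelihood, 1 coefficient per group and Benjamini-Hochberg adjustment over 13499 genes at 0.05. The biological coefficient of variation was 5.22%. Errors of fold changes are standard errors, and 3 against 3 libraries cannot give an exact permutation p below 0.1. The fit was checked on simulated data. DESeq2 1.42.0 and limma 3.58.1 were alternatives, with other scalings, filters, length-trend offsets, blocks and left-out libraries. CPM and RPKM were scaled to the library total multiplied by its TMM factor, except the floor of 3 counts, which used the library total alone. Copies were found with GENCODE M21 transcripts.

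Members and lists were chosen with earlier results of these data known. Members named are the markers, stalk and fusion genes, paralogs with their partners, the 5 highest and lowest, up to 10 called without overlap per direction, or else the 3 with the smallest p. Of other lists up to 2 called per direction were eligible. Same-numbered libraries at 96 h deviated together, with correlations of 0.301, 0.235 and 0.191 across genes, so the numbers were taken to pair them, from the data and not from the labels. No member was called at 96 h with or without the block. Results for some genes of these lists are not reported here.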

Additional observations from a re-analysis of the deposited data

How the results depend on the processing

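Among single values under the alternatives, 1295 kept their direction and side of the threshold, 29 gained and 63 lost a call, 3 moved (the shares without paralogs, given further on) and 4 turned their sign, none of them called in either setting. These were Rpl27a at 96 h summed with its copies (0.0174 against -0.14), Rpl11 over time with WM-2474 under library totals (-0.0398 against 0.09), and Rps16 both at 96 h and over time with DMSO, without DMSO 96 h replicate 3. Leaving out single libraries, Rps16 ranged from -0.333 to 0.129 at 96 h and from -0.4 to 0.064 over time with DMSO, where it passed at -0.4 without DMSO 96 h replicate 1 (edgeR, adjusted p = 0.00709). For WM-2474 against DMSO at 96 h and for the difference between the times, the members called stayed at 0 in every alternative run. At 240 h, 0 became 6 higher with no filter, 1 with limma-voom and 1 with the replicate block. It became 5 with only the libraries compared and 10 with those and the replicate block. The shares of all genes called higher were 0.199, 0.0519, 0.0519, 0.117 and 0.618%, in that order. Length-trend offsets gave a median of 0.0413 at 240 h, and with the replicate block 1 higher, 1 lower and a median of 0.0513. With only the libraries compared, offsets and the replicate block, a choice made after seeing the data, they gave 5 higher, 1 lower and 0.0535. That fit called 0.493% of all genes higher and 0.164% lower. Leaving out single libraries gave 0 to 4 higher at 240 h with medians of 0.0641 to 0.138, beside 0 to 0.0806% of all genes. For the average it gave 0 to 2, beside 0 to 0.0293% of all genes, and no filter gave 1, beside 0.0306%. Over time with DMSO, library totals gave 1 higher, 17 lower and a median of -0.0934, beside 8.82% of all genes higher and 32.5% lower. There limma-voom gave 11 higher and length-trend offsets 11, or 10 with the replicate block. Only the libraries compared with the replicate block gave 10, and with offsets too 15. These counts after library totals stand beside 17.6 to 19.5% of all genes higher. Summing with copies gave 10 higher, beside 17.6% of all genes. Single libraries gave 3 to 7 higher and 1 to 8 lower, beside 13.7 to 18% and 12.7 to 17.5% of all genes. Over time with WM-2474, library totals gave 0 higher, 7 lower and a median of -0.00675, beside 8.13% of all genes higher and 32.5% lower. Length-trend offsets gave medians of 0.0725 and, with the replicate block, 0.0732. Only the libraries compared with the replicate block gave 0 lower, and with offsets too 12 higher, 0 lower and a median of 0.075. Single libraries gave 8 to 24 higher, 0 to 1 lower and medians of 0.0785 to 0.155. Without the paralogs the members' share was 1.27% in WM-2474 96 h, 1.18% in DMSO 240 h and 1.24% in WM-2474 240 h. The cause of these changes was not tested, and the replicate block changed no count of calls by over 1.5 times other than those given. Same-numbered libraries correlated by 0.0397 to 0.114 at 240 h, by 0.0557 to 0.132 over time with DMSO and by -0.00783 to 0.0804 with WM-2474. At values that low the numbers were not taken as pairs. Differently numbered libraries lay at -0.114 to 0.0231 at 240 h and at -0.0804 to -0.0164 over time with DMSO. Both ranges are below those of the same-numbered libraries, so a weak pairing there was not excluded. Low depth limits Rpl39, Rps29 and Rps27 most.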
